A study of Mus musculus with 6 samples.

Results

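The genes described are 6 transcription factor genes at the output side of the circadian clock, Dbp, Tef, Hlf, Nfil3, Bhlhe40 and Bhlhe41, taken by name from 21887 protein-coding genes. Their data were the accessible intervals that overlapped the RefSeq span of each gene or the 10 kb on either side of it. There were 31 such intervals among the 120905 of the deposited list, and no interval belonged to the window of more than 1 gene. The list came from ATAC-seq, an assay in which a transposase cuts open DNA and tags it for sequencing, on liver of male wild-type mice kept on a high-fat diet. There were 3 libraries from 129S1/SvImJ and 3 from C57BL/6J, which are inbred strains, and the labels gave neither an age nor whether replicates were separate animals. The protocol names the material that entered the reaction by an abbreviation it does not explain, and all 6 labels carry an antibody entry, Esrrg, that has no step in the protocol. Positions in the list were on mm10 and carried no strain, library, score or read count. The strains could therefore not be compared, the depth behind an interval is unknown, and the values below have no replicate error and no test. Each of 5 hepatocyte genes picked with their values known (Alb, Apoa1, Apob, Tat and Ttr) had an interval within 1 kb of a gene end, as did 61.5% of all protein-coding genes, so the labelled tissue was not tested by them.

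These 6 genes pass the rhythm of the core clock on to other genes. DBP, TEF and HLF are bZIP activators of the PAR family, named for a region rich in proline and acidic residues, and they bind a DNA element called the D-box, through which they drive rhythmic detoxification and metabolic genes in mouse liver. NFIL3, also called E4BP4, is a bZIP repressor that competes for the same element. BHLHE40 and BHLHE41, also called DEC1 and DEC2, are basic helix-loop-helix repressors that bind E-boxes and oppose the activator pair CLOCK and BMAL1. Dbp itself is a classical E-box target of that pair, and Nfil3 is repressed by the REV-ERB receptors.

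An interval overlapped the promoter window of every member that had one, and covered the start site itself in Tef, Hlf and Bhlhe41 but not in Dbp and Nfil3. RefSeq promoter windows, from 250 bases before to 50 bases after a start site, were found for 5 members, Tef having a pair of them, and each of the 6 windows overlapped an interval by at least 1 bp (5 of 5 genes, exact 95% interval 47.8 to 100%, which covers counting error only). Across the genome 9122 of 17492 protein-coding genes with such a window (52.1%) had an interval over at least 1 of theirs. The windows of these genes held between 60.3% G and C for Dbp and 81.7% for Nfil3. The median over all 32850 windows in the table, non-coding genes included, was 52.7%. Over the windows with an interval it was 61.3%, close to Dbp and to the windows of Tef (62% and 64%). Of 8087 windows of other protein-coding genes with at least 60.3% G and C, 5943 (73.5%) had an interval. The share of genes (52.1%) lies within the exact interval for 5 of 5 genes. The share of windows as rich in G and C (73.5%) lies within that for 6 of 6 windows (54.1 to 100%). The 48.4% of all coding windows with an interval lies below the latter, although the windows of Tef belong to a single gene. A group this small is thus not set apart by gene, or from windows as rich in G and C.

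The 6 promoter windows are printed because each holds a start site and part of an interval. Each is given 5′ to 3′ on the strand of its gene, from RefSeq on GRCm38.p6, the assembly behind mm10, with the letters inside a deposited interval in capitals.
Dbp, chr7:45704997-45705296, + strand: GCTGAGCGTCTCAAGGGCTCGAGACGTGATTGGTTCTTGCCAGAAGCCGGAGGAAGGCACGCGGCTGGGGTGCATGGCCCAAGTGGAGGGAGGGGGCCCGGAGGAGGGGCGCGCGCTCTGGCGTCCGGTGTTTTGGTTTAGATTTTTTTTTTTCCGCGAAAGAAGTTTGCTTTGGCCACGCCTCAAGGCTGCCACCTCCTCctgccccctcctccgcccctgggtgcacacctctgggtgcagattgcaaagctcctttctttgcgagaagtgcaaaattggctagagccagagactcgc
Tef start site at the gene end, chr15:81802423-81802722, + strand: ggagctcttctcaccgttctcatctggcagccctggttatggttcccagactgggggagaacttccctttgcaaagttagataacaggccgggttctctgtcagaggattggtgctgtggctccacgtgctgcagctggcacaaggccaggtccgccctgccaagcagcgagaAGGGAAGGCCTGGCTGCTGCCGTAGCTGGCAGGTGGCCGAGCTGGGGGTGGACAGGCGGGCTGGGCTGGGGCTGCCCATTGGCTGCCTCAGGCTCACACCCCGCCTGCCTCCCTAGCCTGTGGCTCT
Tef inner start site, chr15:81811164-81811463, + strand: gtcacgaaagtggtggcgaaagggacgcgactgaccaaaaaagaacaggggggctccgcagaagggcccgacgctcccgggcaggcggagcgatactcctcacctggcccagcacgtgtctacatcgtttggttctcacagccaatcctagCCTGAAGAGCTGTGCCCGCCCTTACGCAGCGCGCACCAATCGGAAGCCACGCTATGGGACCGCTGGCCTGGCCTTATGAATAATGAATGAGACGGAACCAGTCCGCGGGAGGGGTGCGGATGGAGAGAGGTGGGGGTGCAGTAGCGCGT
Hlf, chr11:90390868-90391167, - strand: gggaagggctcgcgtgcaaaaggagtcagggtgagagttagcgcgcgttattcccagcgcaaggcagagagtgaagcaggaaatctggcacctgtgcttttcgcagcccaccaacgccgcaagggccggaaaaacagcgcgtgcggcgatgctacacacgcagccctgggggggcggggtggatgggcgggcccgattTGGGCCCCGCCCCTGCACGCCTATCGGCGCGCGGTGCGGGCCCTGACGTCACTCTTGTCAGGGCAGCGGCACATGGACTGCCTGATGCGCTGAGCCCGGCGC
Nfil3, chr13:52980990-52981289, - strand: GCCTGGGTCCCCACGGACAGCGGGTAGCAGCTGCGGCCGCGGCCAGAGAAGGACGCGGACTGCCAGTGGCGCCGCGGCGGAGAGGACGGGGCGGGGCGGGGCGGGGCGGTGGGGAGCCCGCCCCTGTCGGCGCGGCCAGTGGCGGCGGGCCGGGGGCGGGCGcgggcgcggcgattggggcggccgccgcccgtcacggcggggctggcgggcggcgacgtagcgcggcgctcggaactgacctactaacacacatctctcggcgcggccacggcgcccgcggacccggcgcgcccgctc
Bhlhe41, chr6:145865371-145865670, - strand: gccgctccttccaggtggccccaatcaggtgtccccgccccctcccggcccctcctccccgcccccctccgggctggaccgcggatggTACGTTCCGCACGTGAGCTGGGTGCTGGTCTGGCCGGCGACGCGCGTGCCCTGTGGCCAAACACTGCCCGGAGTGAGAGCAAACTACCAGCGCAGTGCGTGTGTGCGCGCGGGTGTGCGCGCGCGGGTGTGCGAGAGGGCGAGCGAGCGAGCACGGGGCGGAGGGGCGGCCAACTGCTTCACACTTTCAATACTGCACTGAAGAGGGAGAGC

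The covered part differed from gene to gene. In Dbp 201 of the 300 letters lay inside the interval, all of them upstream, and the interval was centred 154 bp before the start site. Nfil3 was similar, with 162 letters covered and a centre 191 bp before the start. In Bhlhe41 the interval took in 212 letters around the start site and was centred 55 bp before it.

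The intervals of Hlf and Tef sat over the start site and reached into the gene. In Hlf 102 letters were covered and the centre lay 48 bp past the start. At the start site of Tef that coincides with its gene end, 127 letters were covered and the centre lay 65 bp past it. At the inner start site of Tef, 8741 bp inside the gene, 149 letters were covered and the centre was 17 bp past it. Of 21257 windows of other protein-coding genes, 6.91% had an interval centre as close as the inner Tef site, and 44.1% had one as close as Nfil3, the farthest of the 6. The median over those windows was 302 bp (quartiles 71 and 6558 bp). All 6 start sites of the 5 members with a promoter window lay closer than that. This adds little to their overlap with an interval, since only 48.4% of all coding windows overlapped one.

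**Figure D1:**
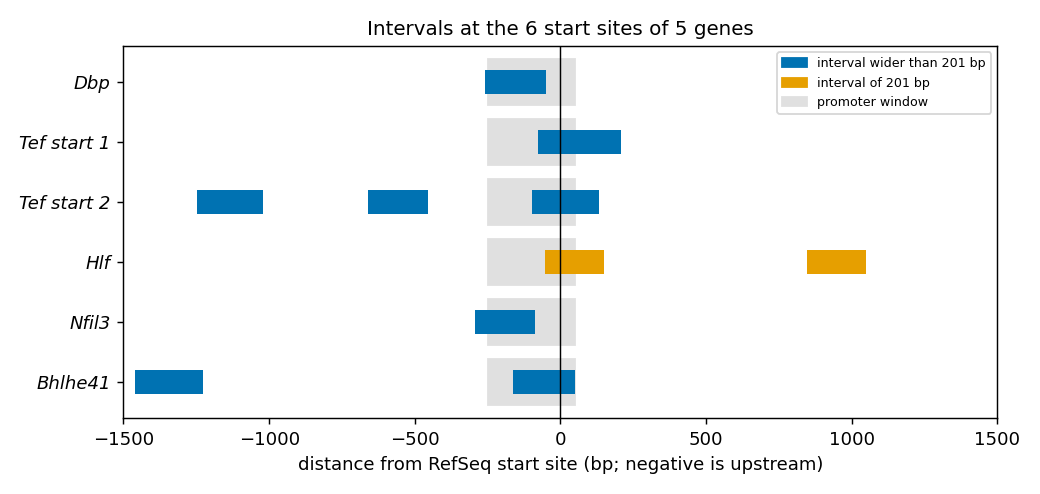
Intervals around the 6 RefSeq start sites of 5 genes, 1 row per start site, with distance in bp along the direction of transcription on the horizontal axis. Coloured bars are deposited intervals and grey boxes the promoter windows. Dbp and Nfil3 have their interval upstream of the start site, and the other 4 sites lie inside theirs.

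The letters of known clock elements were searched on both strands of these windows. CACGTG, the canonical E-box, was found in 3 of the 6 windows, both of Tef and that of Bhlhe41, in 7.15% of all windows in the table, and in 9.56% of those that overlapped an interval, as all 6 did. In Bhlhe41 it lay 153 to 148 bases before the start site and inside the interval. In Tef it lay 127 to 122 bases before the start site at the gene end and 138 to 133 bases before the inner one, outside the interval both times. Because the windows of Tef belong to a single gene, the match is shared by 2 of 5 genes.

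The other elements were rarer in these windows. TGACGTCA, the cyclic AMP response element, lay 9 to 2 bases before the start site of Hlf, inside its interval, and occurred in 1.79% of all windows and 3.19% of those with an interval. AGGTCA, the core of a REV-ERB or ROR site, lay on the opposite strand of Nfil3, 12 to 7 bases before the start site and outside the interval, and occurred in 16.3% of all windows and 12.6% of those with an interval. No member window held the E-box variant CACGTT (4.68% of all windows, 5.31% of those with an interval). The D-box letters TTATGTAA (0.938% and 0.51%) and TTACGTAA (0.119% and 0.189%) were not found in them either. None of the matches overlapped another, and absence of a match says only that these letters are not in these 300 bases.

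At gene ends the picture was nearly as complete, with Nfil3 as the exception. An interval lay within 1 kb of an end of the gene span in 5 of the 6 members (exact 95% interval 35.9 to 99.6%), against 13453 of 21887 protein-coding genes (61.5%), a share within that interval. The nearest interval centre was 7 bp from an end in Dbp, 48 bp in Hlf, 55 bp in Bhlhe41, 65 bp in Tef, 115 bp in Bhlhe40 and 1648 bp in Nfil3. Among the 1301 genes of similar length to Dbp that had any interval, the median of this distance was 214 bp, and 2.84% had one as near as Dbp. The start site of Dbp, however, lies 147 bp inside its span and 154 bp from that centre. Of other coding start sites, 40.3% had a centre as near as that. The share of genes of similar length as near to an end was 22.3% for Hlf, 22.4% for Bhlhe41, 30.5% for Tef and 39.4% for Bhlhe40. For Nfil3 the corresponding median was 150 bp, and 82.5% of 2301 genes had an interval as near. The start site that RefSeq gives for Nfil3 lies 1839 bp inside its span, and the interval 1648 bp from the end is the one over that promoter. In all, 974 protein-coding genes had every tabulated start site over 1 kb inside the span and no interval at an end, and 449 of them (46.1%), Nfil3 included, had an interval over a promoter window.

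Most members had more intervals than protein-coding genes of similar length, taken as those 80 to 125% as long as the member. The count exceeded the median of such genes in 5 of 6 members (exact 95% interval 35.9 to 99.6%), against 41.9% of all 21887 protein-coding genes measured in the same way, which is also within that interval. The members had a median of 4.5 intervals (quartiles 3.25 and 5.75), and all protein-coding genes a median of 3 (quartiles 1 and 5). Hlf stood highest, followed by Bhlhe41 and Tef, while Nfil3 was below its comparison genes. With 6 genes this is a description of these loci and not a property shown for the group.

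**Figure D2:**
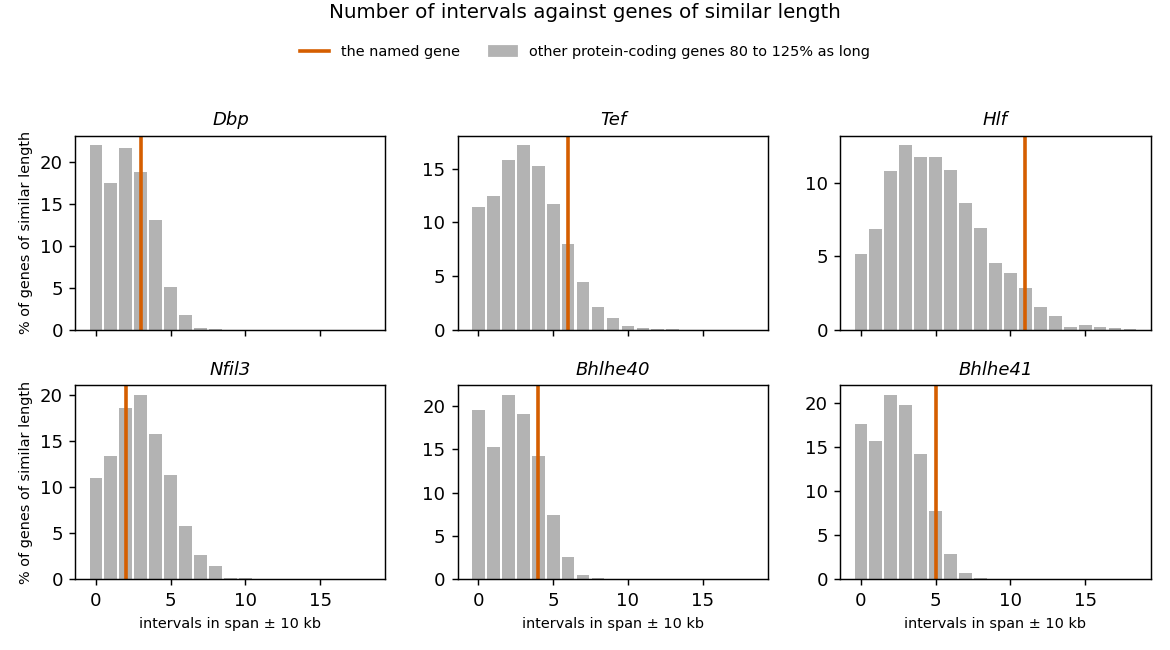
Number of intervals in the gene span and 10 kb to either side (horizontal axis) for each of the 6 genes (vertical line) and the share of protein-coding genes of similar length with each number (grey bars, percent). Hlf with 11 lies in the upper tail, Bhlhe41 with 5 and Tef with 6 above most genes, and Nfil3 with 2 below the median of 3.

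**Figure D3:**
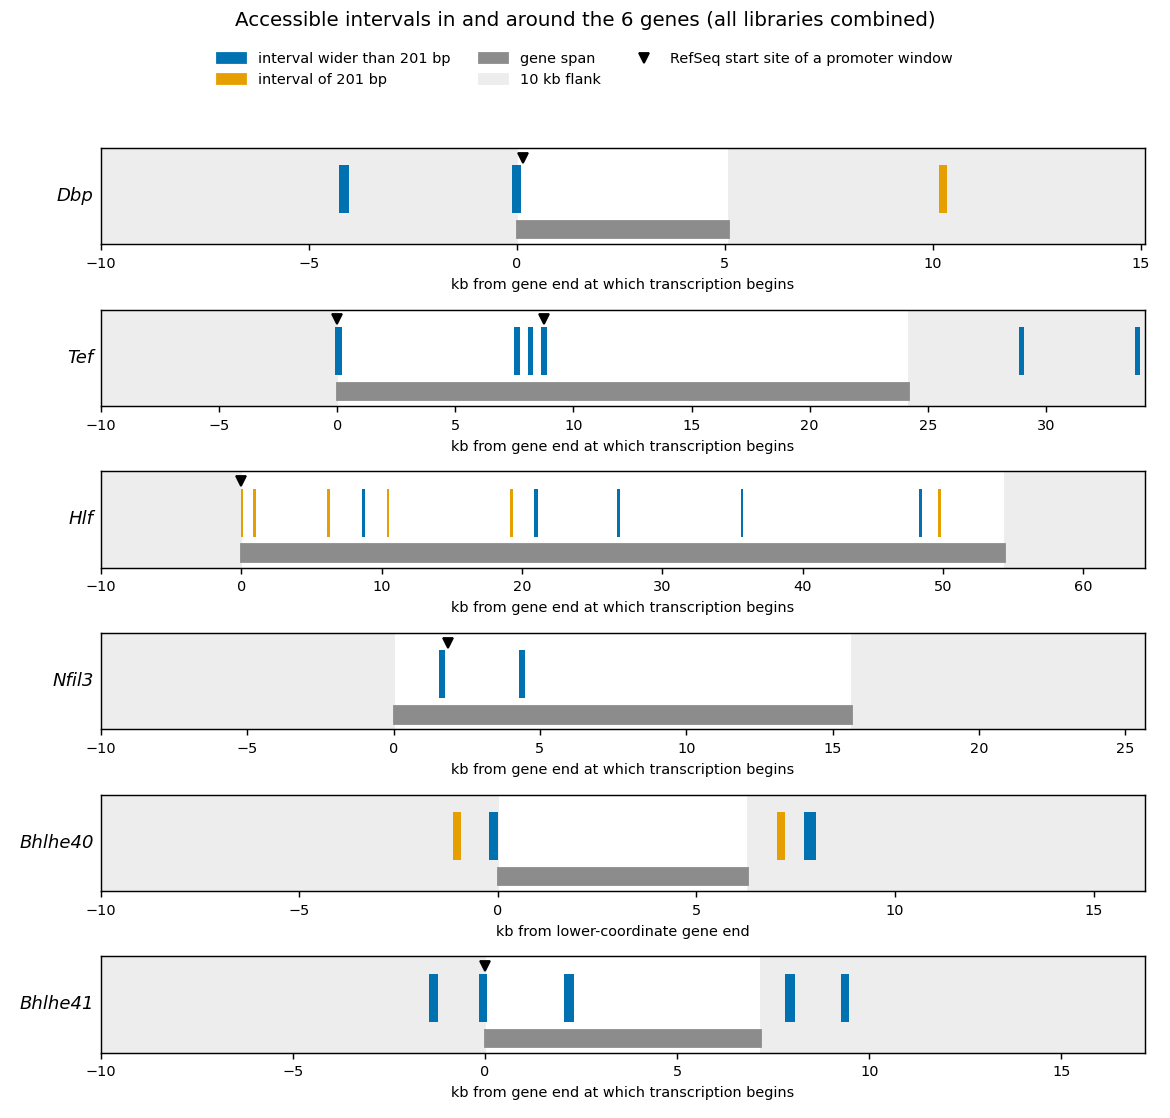
Maps of the 6 genes with 10 kb to either side, in kb from the end where transcription begins, or from the lower-coordinate end for Bhlhe40. Bars are intervals, coloured by width, grey boxes the gene spans and triangles the RefSeq start sites. The 11 intervals of Hlf all overlap the gene, and the 4 of Bhlhe40 all lie outside it.

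Among the PAR bZIP activators, Dbp had the fewest intervals. Dbp, on chromosome 7 (45705100 to 45710203, 5.1 kb), had 3, against a median of 2 (quartiles 1 and 3) in 1667 genes of similar length, 38.9% of which had at least as many. The first (45700818 to 45701052, 235 bp) was centred 4165 bp upstream of the gene and overlapped Car11, a gene of the carbonic anhydrase family. The second (45704989 to 45705197, 209 bp) was the promoter interval, also within 1 kb of Car11. The third (45715240 to 45715440, 201 bp) was centred 5137 bp past the other end. It overlapped Sphk2, a sphingosine kinase gene, and lay within 1 kb of Rpl18, a ribosomal protein gene. The promoter interval was thus the only one of the 3 outside other protein-coding genes, and the position alone does not tie the others to Dbp. Compared with 605 genes that also had a similar number of coding neighbours, Dbp was at the median of 3.

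Tef had 6 intervals, all wider than 201 bp, on chromosome 15 (81802673 to 81826863, 24.2 kb), against a median of 3 (quartiles 2 and 5) in 2736 genes of similar length, 16.3% of which had at least as many. The interval at the gene end (81802596 to 81802880) was the widest of all 31, at 285 bp, and also touched the non-coding gene Gm17597. A cluster of 3 followed around the inner start site. They were centred 1135 bp before it (81810165 to 81810394, 230 bp), 556 bp before it (81810755 to 81810961, 207 bp) and 17 bp past it (81811315 to 81811547, 233 bp). The last 2 lay downstream of the gene, centred 4767 bp past its end (81831512 to 81831749, 238 bp) and 9693 bp past it (81836448 to 81836665, 218 bp). No interval lay between the inner cluster and the end of the gene. When intervals within 500 bp were joined, the cluster became a single interval, leaving Tef with 4, and 38.6% of the comparison genes then had at least as many.

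Hlf had the most intervals of the 6. On chromosome 11 (90336535 to 90390917, 54.4 kb) it had 11, against a median of 5 (quartiles 3 and 7) in 1869 genes of similar length, 6.15% of which had at least as many. All 11 overlapped the gene and none lay only in the flanks, where the median of the comparison genes was 1 and 29.4% had none. Counted over the span alone, the 11 compared with a median of 3, and 1.23% of the comparison genes reached that number. From the start site inwards the centres lay at 48, 948, 6184, 8712, 10450, 19232, 21004, 26841, 35666, 48405 and 49759 bp. The longest gap lay between the centres at 35666 and 48405 bp. The interval nearest to the distal end (90341058 to 90341258, 201 bp) was centred 4623 bp inside it. The widest interval (90369784 to 90370042) measured 259 bp. The interval at the start site (90390769 to 90390969) was 201 bp wide, the narrowest width in the list.

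The narrow intervals carried much of the Hlf count. Of its 11 intervals 5 were wider than 201 bp (45.5%, near the 53.8% of the whole list). Without the narrowest ones Hlf had 5 against a median of 3, with 26.9% of the comparison genes at or above it. Its promoter and end intervals were then lost as well, the one at 948 bp also being 201 bp wide.

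Nfil3, the bZIP repressor, had the fewest intervals of the 6. On chromosome 13 (52967209 to 52982878, 15.7 kb) it had 2, against a median of 3 (quartiles 2 and 4) in 2585 genes of similar length, and 75.6% of those had at least as many. The promoter interval (52981128 to 52981333) was 206 bp wide. The other (52978392 to 52978602, 211 bp) was centred 2542 bp downstream of the start site, inside the gene. Neither flank held an interval, which was true of 26.8% of the comparison genes. Farther out the neighbourhood was not sparse, because with flanks of 50 kb Nfil3 had 9 intervals against a median of 8.

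The DEC repressor genes lie on the same chromosome, 6. They differed in how many intervals overlapped the gene, 0 of 4 for Bhlhe40 and 2 of 5 for Bhlhe41. Bhlhe40 (108660629 to 108666925, 6.3 kb) had 4, against a median of 2 (quartiles 1 and 3) in 1777 genes of similar length, 24.9% of which had at least as many. None overlapped the gene span, as in 40.8% of the comparison genes, and the 4 in the flanks compared with a median of 1 there, with 8.27% of the comparison genes having at least as many. At the lower-coordinate end, intervals were centred 1041 bp outside (108659488 to 108659688, 201 bp) and 115 bp outside (108660409 to 108660620, 212 bp), both overlapping the non-coding gene 0610040F04Rik. At the upper end they were centred 828 bp outside (108667653 to 108667853, 201 bp) and 1563 bp outside (108668348 to 108668628, 281 bp). The gene was thus bracketed by a pair of intervals on each side, of which the last was the second widest of the 31.

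Bhlhe41 (145858243 to 145865420, 7.18 kb) had 5 intervals, all wider than 201 bp, against a median of 2 (quartiles 1 and 4) in 1867 genes of similar length. At least as many were found in 11.6% of those genes and more in 3.75%. Upstream of the gene lay an interval centred 1344 bp before the start (145866648 to 145866880, 233 bp). The promoter interval (145865369 to 145865582, 214 bp) was centred 55 bp before the start and reached over it into the gene. One interval was centred inside the gene, 2180 bp past the start (145863117 to 145863364, 248 bp). With the promoter interval, 2 overlapped the span, against a median of 1 in the comparison genes, 20.6% of which had at least as many. Downstream, intervals were centred 759 bp (145857365 to 145857604, 240 bp) and 2202 bp (145855939 to 145856144, 206 bp) past the end. All 5 lay within 2.1 kb of the span, measured to the nearest edge. Beyond them the next interval upstream of the gene was 52.9 kb away. Among the 6 genes only Tef had a longer empty stretch, with 57.5 kb between the gene and the next interval upstream that did not reach its window.

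Few intervals lay near the limit of 10 kb. Only 2 of the 31 lay more than 5 kb from their gene by the nearest edge, at 9.59 kb for Tef and 5.04 kb for Dbp. The nearest ones left out were 11.6 kb from Nfil3 and from Bhlhe40, 12.0 kb from Bhlhe40 on the other side and 13.0 kb from Tef.

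Widths, the only other value an interval carries, were somewhat larger here than in the list. Of the 31 intervals, 22 were wider than 201 bp (71.0%, exact 95% interval 52.0 to 85.8%), against 53.8% of all 120905. The median was 212 bp (range 201 to 285), against 203 bp (range 201 to 401) in the list. Hlf was near the share of the list, 53.8%, with 5 of 11 wider (45.5%, exact 95% interval 16.7 to 76.6%). The other 5 genes were higher, with 17 of 20 (85.0%, 62.1 to 96.8%). The exact intervals of these shares overlap, and the contrast was noticed in the data. These exact intervals treat the intervals of a gene as separate draws, although 11 of the 31 come from Hlf alone. They therefore settle no comparison of widths.

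Position at a promoter is tied to width in the whole list, where 82.8% of the 9091 intervals over a coding promoter window were wider than 201 bp, against 51.4% of the others. Among the members 5 of the 6 promoter intervals were wider, all but that of Hlf, and 17 of the other 25 were (68.0%, exact 95% interval 46.5 to 85.1%). Promoter intervals of the members had a median of 212 bp, against 213 bp over all coding promoters. At a limit of 250 bp the members did not stand apart, with 3 of 31 intervals (9.68%) at least that wide, against 9.35% of all.

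**Figure D4:**
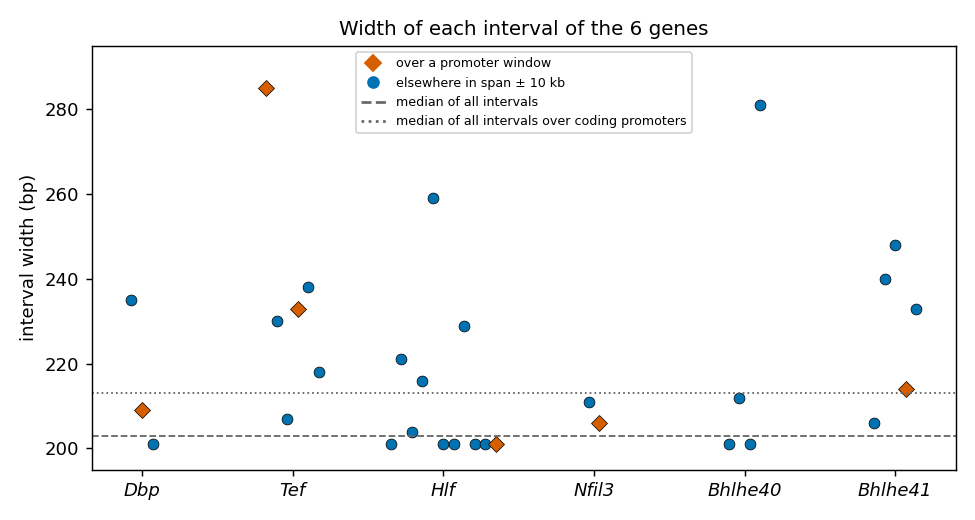
Width in bp (vertical axis, not starting at 0) of each of the 31 intervals by gene, ordered by position within a gene. Diamonds are intervals over a promoter window and circles the others, and lines mark the medians of all intervals (203 bp) and of those over coding promoters (213 bp). Hlf has 5 of 11 intervals wider than 201 bp, near the 53.8% of the list, whereas all those of Tef and Bhlhe41 are wider.

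How a gene stood among its comparison genes depended on the counting for some members more than for others. Across 10 alternatives to the flank, the interval list and the choice of comparison genes, Hlf, Tef and Bhlhe41 were above the median each time, Bhlhe40 in 9, Dbp in 6 and Nfil3 in 2. The share of comparison genes with at least as many intervals ran between 1.23 and 26.9% for Hlf, 1.87 and 30.4% for Bhlhe41 and 3.47 and 38.6% for Tef. For Bhlhe40 it ran between 7.71 and 100%, the upper value being the count over the span alone, which was 0. For Dbp it ran between 35.3 and 62.6%, and for Nfil3 between 41.9 and 84.9%.

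**Figure D5:**
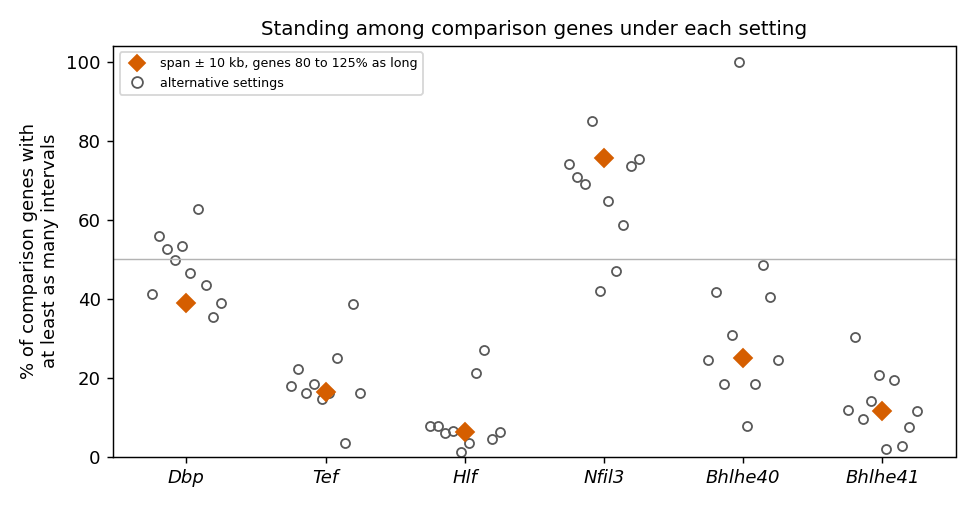
Percent of comparison genes with at least as many intervals as the named gene (vertical axis), for the setting used in the text (diamond) and 10 alternatives (circles). Low values mean many intervals relative to the comparison genes. In the alternative with all protein-coding genes these were not matched in length. Hlf, Bhlhe41 and Tef stay below 40%, Dbp and Nfil3 lie on both sides of the line at 50%, and Bhlhe40 lies below it but for 1 setting at 100%.

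Other genes of the clock were counted in the same way. Of 18 further clock genes, 14 were above the median of genes of similar length (77.8%, against 41.9% of all protein-coding genes). An interval at a gene end was found in 17 (94.4%, against 61.5%). Of the 14 with a tabulated promoter window, 12 had an interval over it (85.7%, against 52.1%). Counts in the 18 genes ran between 1 for Rorb, a retinoid-related orphan receptor gene, and 52 for the much longer Rora, with a median of 6.5. The list was chosen with earlier results of these data known, so these shares do not show a trait of clock genes. Set beside the clock gene or reported D-box gene nearest in length, Hlf had 11 against 8 in Cry1, and Nfil3 had 2 against 2 in Fbxl21. Bhlhe41 with 5 and Bhlhe40 with 4 compared with 3 in Nr1d1, and Dbp with 3 compared with 4 in Nr1i3, which encodes the xenobiotic receptor CAR.

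Genes reported as targets of the PAR bZIP factors or as carriers of a D-box had a median of 5.5 intervals, with a range of 0 to 52. Of 12, 9 were above the median for their length (75%, against 41.9% of all protein-coding genes). An interval lay at a gene end in 9 (75%, against 61.5%) and over a tabulated promoter window in 7 of 10 (70.0%, against 52.1%). Ppara and Por, which encodes cytochrome P450 reductase, had 10 each, and Cyp7a1 had 6. Alas1, the first enzyme of haem synthesis, had 1 against a median of 3, and Cyp2a5 had none. Whether reads shared with near-identical family members bear on that count was not tested. Per1, Per2, Per3, Nr1d1 and Rora belong to both lists.

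On their own chromosomes, the protein-coding genes with the same number of intervals and the nearest length were Zfp553 for Dbp (5.14 kb), Cmbl for Tef (24.8 kb), Ankrd34b for Nfil3 (15.8 kb), Cyren for Bhlhe40 (6.29 kb) and Rnf181 for Bhlhe41 (7.28 kb). For Hlf it was Hs3st3b1, a gene of 37.6 kb. Likeness here is in number and length alone.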

How the data were processed

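ATAC-seq was done on 6 liver libraries, 3 per strain, per the labels. The submitters' processing notes name fastp, Bowtie2, HOMER and mm10, while the sources used here do not give the read-end shift, filters, peak threshold or the way libraries were combined. The authors deposited interval positions in bp without a score, so depth is unknown, and the number of weak sites listed depends on that threshold.

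Gene spans and promoter windows came from RefSeq tables of GRCm38.p6. Starts were made 1-based. An interval was counted when it overlapped a window by at least 1 bp. Counts were made with Python 3.11.15, numpy 2.4.6, pandas 2.3.3 and scipy 1.17.1 and were tested on simulated intervals. Intervals for shares are exact Clopper-Pearson 95% intervals, for counting error only. Those for shares of accessible intervals ignore that several come from the same gene. Alternatives were other flanks, end windows, comparison genes and interval lists. No genome sequence was used, so motifs were searched in promoter windows only. Members, lists and settings were chosen with earlier results of these data known. Genes named were the members, coding genes within 1 kb of their intervals, list genes with the most or fewest intervals or nearest in length, and same-chromosome genes of equal number. Por, Ppara, Cyp7a1, Alas1, the hepatocyte genes and non-coding genes were added after their values were seen. One of the results under this rule is not reported here.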

Additional observations from a re-analysis of the deposited data

How the results depend on the processing

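Of 32 recomputed group values, 27 were classed as close to the value in the text, but that class was wide. It took in 22 intervals against 31, 85% wide intervals against 71%, and 4 or 6 members against 5. Most of the 27 were counts of members, which had little room to leave that class. The 27 are therefore no measure of how stable the results are. The 31 intervals became 20 without flanks, 66 with flanks of 50 kb and, as an alternative chosen after seeing the data, 20 without the Hlf window. The share of wide intervals became 9.68% at a limit of 250 bp. The canonical E-box was inside the interval in 1 of the 3 windows that held it, also a count chosen after seeing the data. Members with an interval at a gene end numbered 4 without the narrowest intervals, Hlf being lost, against 51.7% of all protein-coding genes. They numbered 6 with end windows of 2 or 5 kb, against 68% and 76.8% of all protein-coding genes. Members with a covered promoter window numbered 4 without the narrowest intervals, against 44.4% of protein-coding genes with such a window. Members above the median for their length numbered 4 without flanks, against all protein-coding genes, or among genes of similar gene density, and 5 under the other 7 alternatives. Of 36 recomputed values for single genes, 10 moved by more than 1.5 times. The causes were not tested beyond what each setting leaves out. No paired analysis was possible because the interval list names no library. Leaving out a replicate was not possible for the same reason. Because depth is unknown, an interval that is missing from the list does not show closed chromatin.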
